A study of Arabidopsis thaliana with 9 samples.

Results

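The genes described here encode the enzymes and small regulators of the Calvin cycle and of photorespiration in Arabidopsis thaliana. They comprise 38 loci among the 33602 genes of a count table, chosen for function with earlier results of these data known. They fall into 8 role classes: Rubisco small subunits and Rubisco activase (5 genes), the reduction phase (5), the regeneration phase (10), CP12 proteins (3), carbonic anhydrases (2), and photorespiration in chloroplasts (2), peroxisomes (5) and mitochondria (6). Polyadenylated RNA was sequenced from whole seedlings 6 days old in 3 groups of 3 libraries. Mock WT was wild type Col-0 given ethanol diluted 5000-fold, mock lhp1 was the lhp1 mutant given the same solution, and JA WT was Col-0 given jasmonate (JA) at 5 µM for 3 h. The dose, 5-µm in the labels, was taken to be micromolar, and the jasmonate group's own treatment label names no solvent. The growth medium was liquid MS with sucrose in all groups, and the labels give the mutant as lhp1, while the count table's column names read lhp1-3. No library combined the mutant with jasmonate. The design text calls the replicates biological, but does not say whether they came from separate cultures, so the p-values below measure the spread between these samples.

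In the Calvin cycle, Rubisco joins carbon dioxide to ribulose-bisphosphate, the product is reduced to triose phosphate with ATP and NADPH, and the remaining enzymes rebuild the acceptor. Rubisco also accepts oxygen, and photorespiration returns the resulting phosphoglycolate to the cycle through reactions spread over chloroplasts, peroxisomes and mitochondria. In seedlings these nuclear genes are known for high activity in illuminated cotyledons and leaves, and several of them for induction by light. LHP1 is a Polycomb-associated chromatin protein, and jasmonate is a wound and defence hormone.

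Library totals ranged from 18081553 to 31454984 counts, and the mock lhp1 libraries were the shallowest. LHP1 RNA was lower in mock lhp1, at 10.1, 8.33 and 9.80 CPM (counts scaled to 1000000 per TMM-adjusted library) against 20.7, 13.9 and 18.6 CPM in mock WT. The jasmonate-responsive gene JAZ10 stood at 2.56 to 3.14 CPM in mock WT and 100.4 to 106 CPM in JA WT. Within mock WT, replicate 2 stood apart: the floral gene SEP3 was at 94.6 CPM in it, at 27.8 and 26.4 CPM in replicates 1 and 3, and at 156 to 159 CPM in mock lhp1. Results that rest on this library are therefore also given without it.

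The members took a measurable part of each transcriptome. Their summed counts made up 4.82%, 3.71% and 4.45% of the 3 mock WT libraries. The JA WT libraries gave 4.20%, 4.21% and 4.44%, and the mock lhp1 libraries 2.41%, 2.44% and 2.47%. Means were 4.33% ± 0.565 (SD, n = 3) for mock WT, 4.28% ± 0.136 for JA WT and 2.44% ± 0.0300 for mock lhp1. Every mock lhp1 library was below every other library, while the ranges of mock WT and JA WT overlapped. With 3 libraries against 3 no exact permutation test can pass 0.05, so no test of these shares is given.

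Levels of different genes were compared per kilobase of exon. RBCS1A, a Rubisco small subunit gene, had 9027 CPM per kb in mock WT and ranked 2 among the 32835 genes with an annotated length. Rubisco activase (RCA) ranked 7, RBCS3B 9 and RBCS2B 16, and 7 members stood among the highest 100 genes. The lowest of the 37 tested members was CP12-3, with 6.35 CPM per kb and rank 12036. Members with more RNA per kb in mock WT tended to have lower fold changes in lhp1 (Spearman rho = -0.43 across 37 genes, which are not independent replicates and share the same libraries). The mock WT level enters both quantities, which can by itself make rho negative, so no conclusion is drawn from it.

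The stretches before the gene start are shown for 4 genes on which the results below turn: RBCS2B and PRK, which were lower in lhp1 and hold a light-element match, CA2, which had the lowest fold change and holds no match, and CP12-3, the single member called after jasmonate. Each runs 5′ to 3′ on the gene's strand over the 250 bases before the most upstream annotated transcript start (RefSeq, TAIR10.1), at chr5:15382072-15382321 (minus strand) for RBCS2B, chr1:11531949-11532198 (plus) for PRK, chr5:4757606-4757855 (plus) for CA2 and chr1:28727956-28728205 (plus) for CP12-3. Capitals mark matches on either strand to 4 motifs known from promoters of light-responsive and clock-controlled plant genes, searched as exact letters. The G-box was searched as CACGTG, a palindrome. The I-box was searched as GATAAG, which reads CTTATC on the opposite strand. The third motif was CCAATC, and the fourth was the evening element, searched by the letters AAAATATCT. In the members no match overlapped another.
RBCS2B: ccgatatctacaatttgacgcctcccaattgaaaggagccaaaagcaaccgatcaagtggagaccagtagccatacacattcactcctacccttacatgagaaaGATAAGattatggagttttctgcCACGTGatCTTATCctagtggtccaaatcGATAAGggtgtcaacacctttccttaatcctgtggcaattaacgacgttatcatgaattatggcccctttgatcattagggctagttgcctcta
PRK: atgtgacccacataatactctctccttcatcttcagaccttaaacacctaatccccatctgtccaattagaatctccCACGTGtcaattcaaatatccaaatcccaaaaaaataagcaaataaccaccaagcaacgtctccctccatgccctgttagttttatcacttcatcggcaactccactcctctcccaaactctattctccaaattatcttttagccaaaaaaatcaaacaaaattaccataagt
CA2: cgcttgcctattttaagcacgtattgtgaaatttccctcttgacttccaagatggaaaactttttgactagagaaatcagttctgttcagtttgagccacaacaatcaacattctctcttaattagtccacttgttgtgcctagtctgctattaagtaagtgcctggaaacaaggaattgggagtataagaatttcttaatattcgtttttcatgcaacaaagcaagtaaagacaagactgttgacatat
CP12-3: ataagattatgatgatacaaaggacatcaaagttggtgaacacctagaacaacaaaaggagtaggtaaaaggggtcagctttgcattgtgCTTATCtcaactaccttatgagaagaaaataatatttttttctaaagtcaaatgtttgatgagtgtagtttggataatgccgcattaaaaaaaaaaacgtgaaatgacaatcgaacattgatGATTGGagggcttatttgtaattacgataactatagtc

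The RBCS2B stretch held a G-box 123 bases before the start, flanked by I-boxes 146, 115 and 94 bases before it. PRK held a G-box at 173 bases, and CP12-3 an I-box at 160 and a CCAATC match at 38 bases. Over the 38 members, a G-box occurred in 5 stretches (13.2%, against 6.49% of 27443 promoters of the same length), an I-box in 6 (15.8% against 12.29%), CCAATC in 5 (13.2% against 10.23%) and the evening element in 0 (against 2.36%). At least 1 of these motifs was found in the searched stretch of 11 members and none in that of the other 27. Of the 33 members that were lower in lhp1, 9 held a match. CP12-3 and GLDP2, which did not pass the test in lhp1, held matches too. The share of all promoters with at least 1 of these motifs was not counted. These matches describe letters in a window and are not evidence of a bound site.

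Loss of LHP1 was compared with wild type under the mock solution. In mock lhp1, 33 of the 37 members that passed the filter on low counts fell, against 14.4% of all 20986 genes tested (edgeR quasi-likelihood test, adjusted p below 0.05 over all genes). A further 2 members rose, against 11.1% of all genes, namely FBA3 and AT1G56190. CP12-3 and GLDP2 did not pass the test. The median log2 fold change of the tested members was -0.83, beside 0.00 over all genes tested, and the members ranged from -2.25 (CA2) to 0.53 (FBA3). The mock lhp1 libraries lay below all mock WT libraries for 34 members, against 23.1% of all genes, and above them for 2, against 21.4%. Adjusted p-values of the called members ranged from 9.08e-05 to 0.018.

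**Figure D1:**
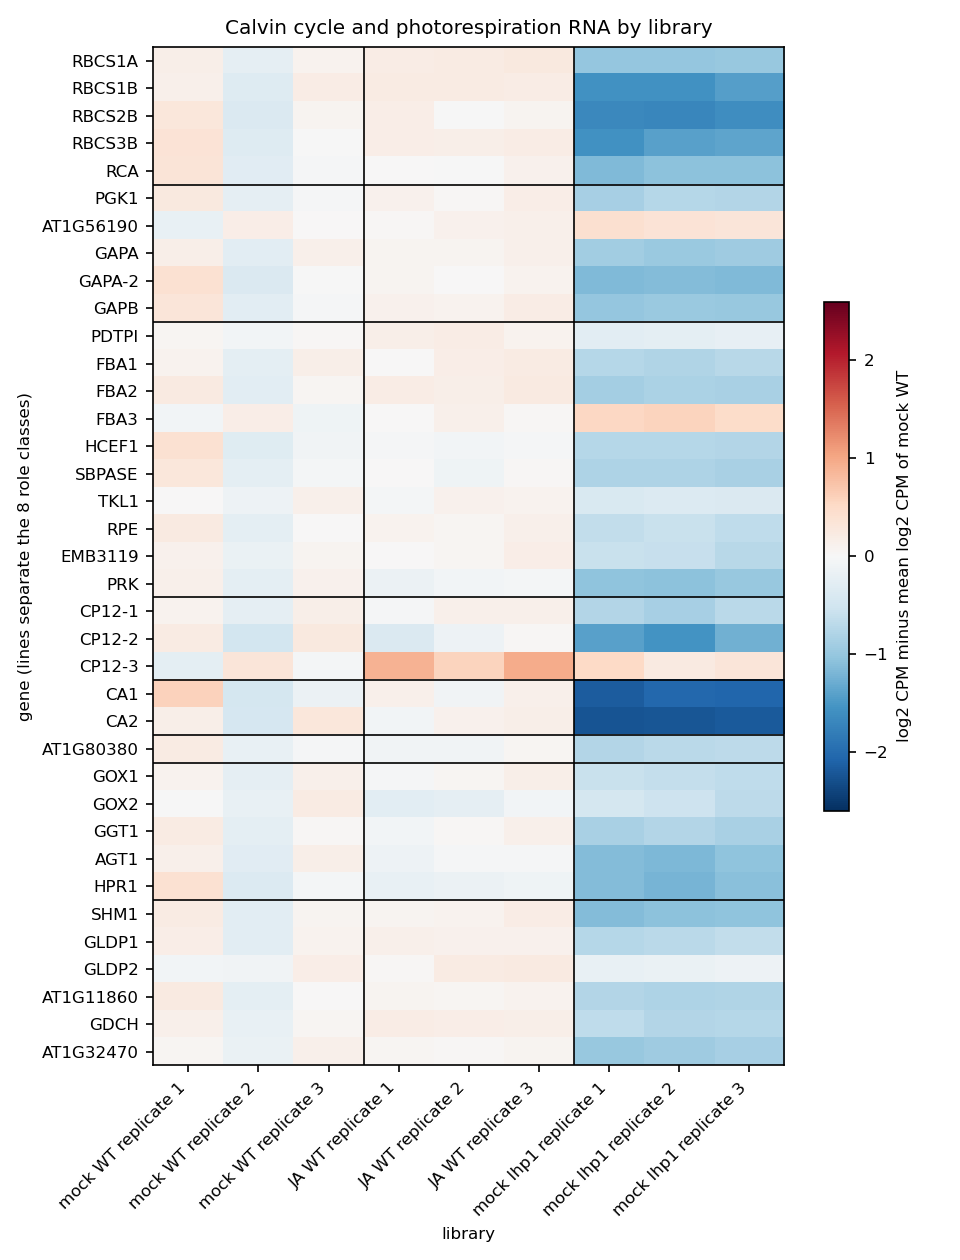
Heat map of the 37 tested members (rows, grouped by role) in the 9 libraries (columns), coloured by log2 CPM minus the mean log2 CPM of mock WT. The 3 mock lhp1 columns are blue for most genes and red for FBA3 and AT1G56190, mock WT replicate 2 is pale blue where mock lhp1 is blue, and the 3 JA WT columns are near white apart from CP12-3.

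Both carbonic anhydrases, which interconvert carbon dioxide and bicarbonate, had the lowest fold changes. CA2 (chr5:4757856-4762666) was at 805, 539.8 and 889 CPM in mock WT, against 153, 155 and 161 CPM in mock lhp1. The groups did not overlap, and the mock lhp1 libraries were close together. CA2 fell by 2.25 ± 0.15 on the log2 scale (approximate standard error, edgeR adjusted p = 9.08e-05), to 21.0% of mock WT. CA1 was at 1463, 705 and 867 CPM in mock WT and 214, 235 and 229.9 CPM in mock lhp1, and fell to 22.4%. The mock WT libraries of CA1 spread more widely than those of CA2, yet the lowest of them remained above every mock lhp1 library.

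All 5 genes of the Rubisco class fell, with a median log2 fold change of -1.48. Among the small subunit genes, RBCS2B held the motif matches shown above, while the searched stretches of RBCS1A, RBCS1B and RBCS3B held none. Bases further upstream, or after the most upstream annotated start, were not searched, so these genes may hold such motifs there. RBCS2B (chr5:15380907-15382071, minus strand) was at 2209, 1393 and 1897 CPM in mock WT, against 566, 559 and 585 CPM in mock lhp1. It fell by 1.68 ± 0.14 on the log2 scale (edgeR adjusted p = 0.000109) with no overlap between groups, to 31.1% of mock WT. RBCS1B and RBCS3B, its neighbours on chromosome 5, fell to 34.2% and 35.9%. RBCS1A, on chromosome 1, was at 12570.2, 9697 and 12072 CPM in mock WT, against 5700.4, 5677 and 5737 CPM in mock lhp1. It fell by 1.00 ± 0.10 (edgeR adjusted p = 0.000199), the smallest fall among the small subunit genes. RCA, which frees Rubisco of inhibitory sugar phosphates, fell to 46.1%. The small subunit genes share sequence, and between 1.4% (RBCS1A) and 21.4% (RBCS2B) of the 50-base windows in their exons recur in another of them, so reads may have been split between them by the counting.

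Of the 5 reduction phase genes 4 fell and 1 rose. GAPA-2 (chr1:4392438-4394454), a subunit of the chloroplast glyceraldehyde-phosphate dehydrogenase, was at 1311, 776 and 991 CPM in mock WT, against 450.2, 458 and 452 CPM in mock lhp1. Its mock lhp1 libraries were nearly equal and lay below every mock WT library. GAPA-2 fell by 1.18 ± 0.15 on the log2 scale (edgeR adjusted p = 0.000422), GAPA by 0.94 and GAPB by 1.01. PGK1, a chloroplast phosphoglycerate kinase, fell to 57.4%. AT1G56190 (chr1:21028137-21030684), annotated as a phosphoglycerate kinase family protein of the chloroplast stroma, moved the other way. It was at 183, 237 and 211 CPM in mock WT, against 278, 266 and 260.3 CPM in mock lhp1. The groups did not overlap, and AT1G56190 rose by 0.35 ± 0.09 (edgeR adjusted p = 0.0139), although it was no longer called without mock lhp1 replicate 1 (adjusted p = 0.0581).

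The regeneration phase held 10 genes, of which 9 fell and 1 rose. PRK (chr1:11532199-11534639), phosphoribulokinase, which makes the acceptor ribulose-bisphosphate, was at 824, 626 and 810.0 CPM in mock WT, against 363, 358 and 379 CPM in mock lhp1. Every mock WT library was above every mock lhp1 library. PRK fell by 1.04 ± 0.10 on the log2 scale (edgeR adjusted p = 0.000182), the lowest fold change of the class. The bisphosphatases HCEF1 (fructose-bisphosphatase) and SBPASE (sedoheptulose-bisphosphatase) fell to 58.2% and 56.1%, the aldolases FBA1 and FBA2 to 59.0% and 54.8%, and RPE (pentose phosphate epimerase) and EMB3119 (ribose-5-phosphate isomerase) to 64.2% and 64.1%. Transketolase TKL1 fell to 76.6%. PDTPI, the plastid triose phosphate isomerase, fell to 84.5% (edgeR adjusted p = 0.018). That call was lost without mock lhp1 replicate 1 (adjusted p = 0.072), without mock lhp1 replicate 2 (0.0632) and when libraries were scaled by total counts (log2 fold change -0.09, adjusted p = 0.246).

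FBA3 (chr2:94727-96863, minus strand), a further plastid-located aldolase, was the member with the highest fold change. It was at 355, 419.6 and 346 CPM in mock WT, against 541, 555 and 519 CPM in mock lhp1. All mock lhp1 libraries were above all mock WT libraries, and mock WT replicate 2 was the highest of its group. FBA3 rose by 0.53 ± 0.08 on the log2 scale (edgeR adjusted p = 0.00129).

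**Figure D2:**
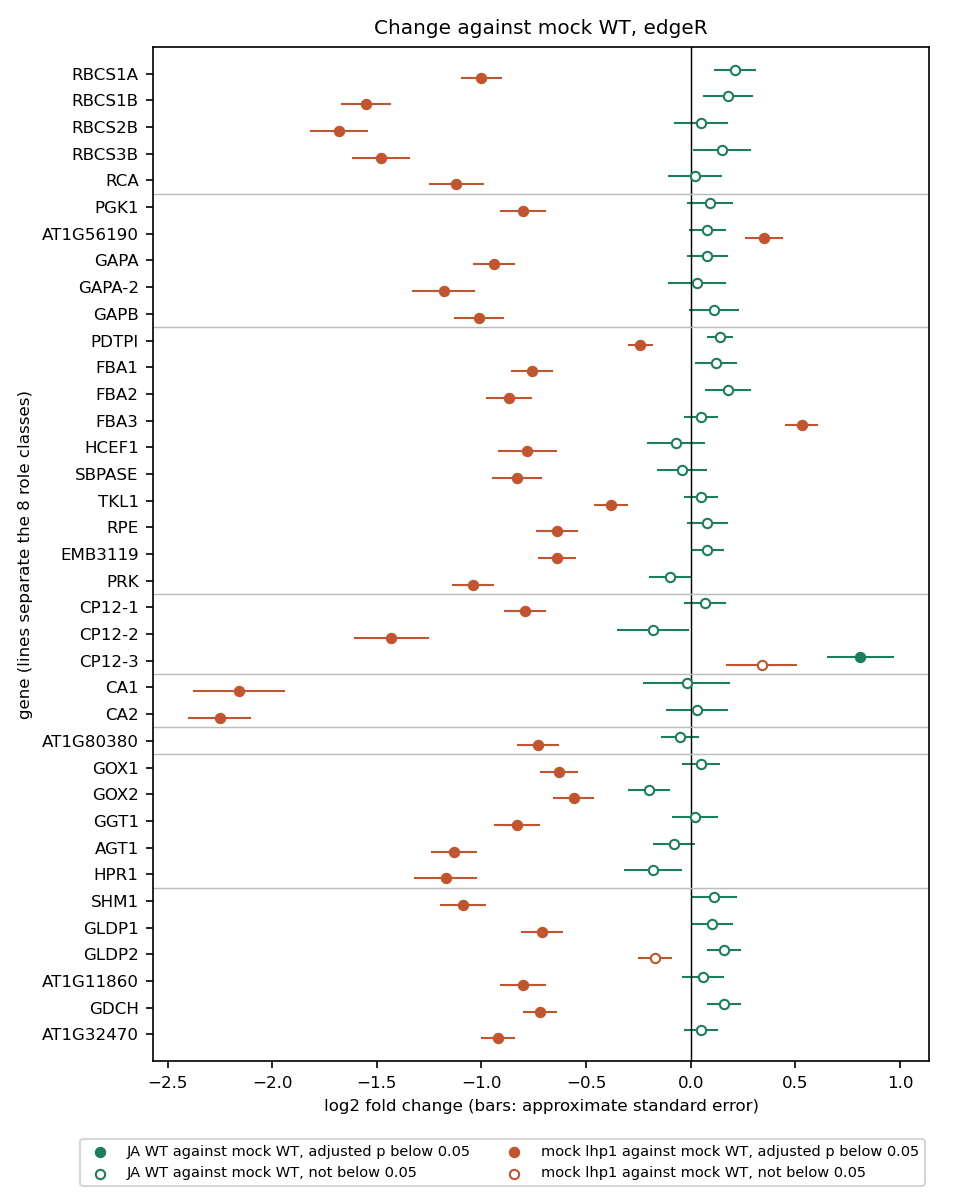
Log2 fold change of each of the 37 tested members against mock WT (x axis), for JA WT in green and mock lhp1 in orange, with bars for the approximate standard error and filled points for an adjusted p below 0.05. In mock lhp1 the called members extend from -2.25 for CA2 to 0.53 for FBA3, whereas in JA WT CP12-3 at 0.81 is the single filled point and the others lie between -0.20 and 0.21.

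CP12 proteins bind glyceraldehyde-phosphate dehydrogenase and phosphoribulokinase into an inactive complex in the dark, and their 3 genes differed from each other. CP12-2 (chr3:23090944-23091580) was at 35.2, 21.9 and 36.4 CPM in mock WT, against 11.5, 10.4 and 12.7 CPM in mock lhp1. The groups were separate, and CP12-2 fell by 1.43 ± 0.18 on the log2 scale (edgeR adjusted p = 0.000477). CP12-1 fell to 57.8%. CP12-3 was at 4.06, 5.99 and 4.64 CPM in mock WT, against 6.96, 5.70 and 5.98 CPM in mock lhp1, with overlapping groups. Its change of 0.34 on the log2 scale did not pass (edgeR adjusted p = 0.163). Without mock WT replicate 2 that value was 0.51 and passed (edgeR adjusted p = 0.0344).

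Photorespiration genes behaved like the cycle genes in direction. Of the 12 that were tested 11 fell, with a median log2 fold change of -0.76 beside -0.87 for the 25 genes of the cycle with CP12 and carbonic anhydrase. No test of the difference between these medians was made. In chloroplasts, the glycerate kinase gene AT1G80380 (chr1:30217116-30220595), which catalyses the last step of the pathway, was at 183, 138 and 153 CPM in mock WT, against 92.1, 96.1 and 98.1 CPM in mock lhp1. These ranges were separate, and AT1G80380 fell by 0.73 ± 0.10 (edgeR adjusted p = 0.000544).

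All 5 peroxisomal genes fell. HPR1 (chr1:25493193-25496053), hydroxypyruvate reductase, was at 392, 233 and 288 CPM in mock WT, against 137, 129 and 140.4 CPM in mock lhp1. Mock WT replicate 1 was the highest library and the groups did not overlap. HPR1 fell by 1.17 ± 0.15 on the log2 scale (edgeR adjusted p = 0.00043). The aminotransferase genes AGT1 (serine to glyoxylate) and GGT1 (glutamate to glyoxylate) fell to 45.8% and 56.2%. The glycolate oxidase genes GOX1 and GOX2, which lie next to each other on chromosome 3, fell to 64.7% and 67.9%.

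In mitochondria, glycine decarboxylase and serine hydroxymethyltransferase convert glycine to serine, releasing carbon dioxide and ammonia. SHM1 (chr4:17831731-17835017, minus strand), the hydroxymethyltransferase, was at 1323, 947 and 1198 CPM in mock WT, against 527, 547 and 556 CPM in mock lhp1. The lowest mock WT library was well above the highest mock lhp1 library. SHM1 fell by 1.09 ± 0.11 on the log2 scale (edgeR adjusted p = 0.000199). Among the decarboxylase subunits, the P-protein gene GLDP1 fell to 61.1%, the T-protein gene AT1G11860 to 57.3%, the H-protein gene GDCH to 60.7% and AT1G32470, annotated to the glycine cleavage complex, to 52.9%. The other P-protein gene, GLDP2, was at 380.2, 373 and 447 CPM in mock WT, against 348, 355 and 366 CPM in mock lhp1. Its groups did not overlap, but its log2 fold change of -0.17 did not pass (edgeR adjusted p = 0.169).

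PGLP1, the phosphoglycolate phosphatase that opens the pathway, was not tested. The table gave it 3, 2 and 3 counts in the mock WT libraries, 2, 10 and 1 counts after jasmonate and 1, 0 and 1 in the mutant. Of its 50-base exon windows 91.2% recur in AT5G36790, annotated as a haloacid dehalogenase-like hydrolase superfamily protein. AT5G36790 was at 1.51, 1.34 and 4.41 CPM in mock WT, 20.3, 1.77 and 17.7 CPM after jasmonate and 24.8, 9.13 and 1.05 CPM in the mutant. These values varied widely within every group, and how the counting assigned reads that match both genes is not known here. Exons of EMB3119, HCEF1 and CA1 overlap those of another gene over 23.7%, 9.4% and 10.5% of their bases, so their counts may also include or lose shared reads.

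**Figure D3:**
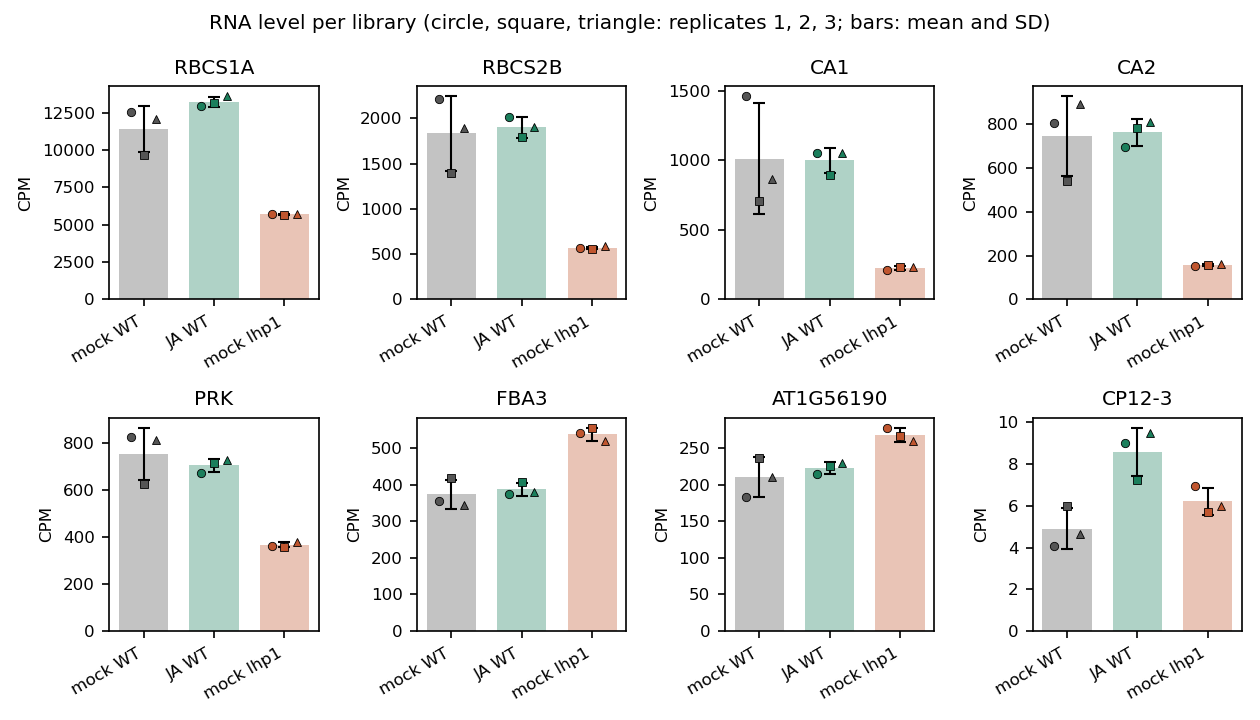
RNA level in CPM (y axes, from 0) of 8 members in the 3 groups; points are the 3 libraries of each group, columns their mean and bars the SD. RBCS1A, RBCS2B, CA1, CA2 and PRK are lower in mock lhp1 than in any other library, FBA3 and AT1G56190 are higher in mock lhp1, and CP12-3 is highest in JA WT.

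Because paralogous genes did not share a fold change, the composition of families differed between groups. FBA3 made up 10.3%, 15.8% and 10.9% of the counts on FBA1, FBA2 and FBA3 in mock WT. The shares were 11.2%, 11.9% and 10.8% after jasmonate and 26.7%, 26.5% and 25.3% in the mutant. All mock lhp1 libraries were above all others. AT1G56190 made up 13.9% to 22.6% of the counts on it and PGK1 in mock WT, 17.3% to 18.7% after jasmonate and 31.6% to 34.6% in the mutant. GLDP2 made up 31.9% to 38.4% of P-protein counts in mock WT and 44.2% to 44.8% in mock lhp1. RBCS1A made up 63.4% to 68.0% of small subunit counts in mock WT, 66.3% to 67.7% after jasmonate and 72.9% to 74.9% in the mutant. CA1 and CA2, by contrast, kept overlapping shares, with CA1 at 49.4% to 64.5% in mock WT and 58.3% to 60.2% in mock lhp1. These shares are descriptions without a test.

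**Figure D4:**
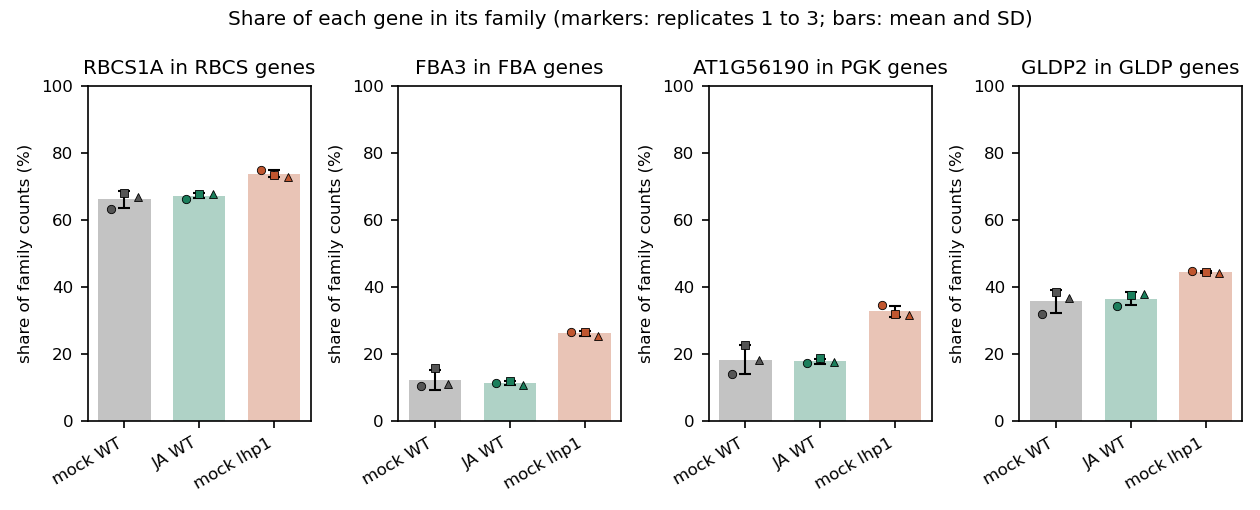
Share of each family's summed counts (y axis, percent, from 0) taken by RBCS1A, FBA3, AT1G56190 and GLDP2 in the 3 groups; points are libraries, columns means and bars SD. In each panel the mock lhp1 libraries lie above all mock WT and JA WT libraries, with FBA3 at 25.3% to 26.7% against 10.3% to 15.8% in mock WT.

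Mock WT replicate 2 was the lowest mock WT library for all 33 members that fell, and it remained above every mock lhp1 library for all 33. On a scale from the mean of mock WT replicates 1 and 3 (0) to that of mock lhp1 (100), its median position over these members was 39.3% (quartiles 33.9% and 42.8%). These orderings were not counted over all genes and partly follow from choosing members called lower, so they are not read as a trait of the members. On the first principal component of all genes tested, mock WT replicate 2 was at 29.2. Replicates 1 and 3 were at -9.44 and -11.7, and mock lhp1 at 55.3 to 58.1. Without mock WT replicate 2, 33 members were lower and 3 higher in lhp1, and the median log2 fold change was -0.95. Scaling by total counts in place of TMM gave 32 lower and 2 higher, with a median of -0.68. Over all genes the split moved from 2321 higher and 3023 lower to 5042 higher and 1878 lower with total counts.

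Markers of green tissue and of roots differed between these groups as well. All 11 light-harvesting antenna genes used as green tissue markers fell in mock lhp1 (median log2 fold change -1.21), with a summed level of 18779.8 to 19440.4 CPM against 33389 to 57056 CPM in mock WT and 44384 to 47861 CPM in JA WT. Of 15 root markers 6 rose and 0 fell (median 0.51; 8 higher without mock WT replicate 2, 10 higher with total counts), with a summed level of 377 to 453 CPM in mock lhp1, against 219 to 350 CPM in mock WT and 248 to 293 CPM after jasmonate. Over all genes 14.4% fell and 11.1% rose in mock lhp1. Every marker of both lists had counts in all 9 libraries. The part of these differences in the results on the members was not tested, and in whole seedlings fewer cells of a type and less RNA per cell cannot be told apart.

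The response of wild type to 3 h of jasmonate was compared with the mock solution. After jasmonate, 1 of 37 tested members rose, CP12-3, against 8.62% of all genes, and 0 fell, against 7.07%. CP12-3 (chr1:28728206-28728976) was at 4.06, 5.99 and 4.64 CPM in mock WT, against 9.0, 7.26 and 9.48 CPM in JA WT. The groups did not overlap, and CP12-3 rose by 0.81 ± 0.16 on the log2 scale (edgeR adjusted p = 0.00591), in each of the 16 alternative settings as well. It is the tested member with the least RNA per kb.

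The other 36 tested members had log2 fold changes between -0.20 and 0.21, with approximate standard errors of 0.06 to 0.21 and edgeR adjusted p from 0.166 to 0.975. Over the 37, unadjusted p was below 0.05 for 2, and the median was 0.06 beside 0.00 over all genes. The JA WT libraries lay above all mock WT libraries for 4 members (RBCS1A, PDTPI, GDCH and CP12-3), against 16.2% of all genes, and below them for 0, against 13.9%. The smallest change detectable with 3 libraries a group was not computed. A change beyond the spread of mock WT could also go uncalled. PDTPI had a mean of 427 ± 20.1 CPM (SD) in mock WT and 471 CPM in JA WT, and did not pass (edgeR adjusted p = 0.166).

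RBCS1A stood at 12928, 13141 and 13619 CPM in JA WT, above all mock WT libraries, and differed by 0.21 ± 0.10 on the log2 scale (edgeR adjusted p = 0.185). GAPB stood at 1260.1, 831 and 989.7 CPM in mock WT, against 1097, 1074 and 1162 CPM in JA WT, and its groups overlapped. FBA2 stood at 2400.4, 1695 and 2112 CPM in mock WT, against 2327, 2277 and 2416 CPM in JA WT. In these last genes the mock WT libraries spread more widely than the JA WT libraries and enclosed all or most of them.

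CA1 stood at 1051, 898 and 1054 CPM in JA WT, within its mock WT range, with a log2 fold change of -0.02 ± 0.21. GGT1 stood at 1142, 826 and 1011 CPM in mock WT, against 942, 1000.2 and 1081 CPM in JA WT. SHM1 stood at 1209.8, 1224 and 1299.7 CPM in JA WT. The JA WT values of all of these genes lay inside the mock WT range. AT1G80380 stood at 147, 147 and 162 CPM in JA WT, also inside its mock WT range.

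Which members passed after jasmonate depended on single mock WT libraries. Without mock WT replicate 1, 5 members were higher: CP12-3, RBCS3B (log2 fold change 0.33), GAPB (0.27), FBA2 (0.28) and CA1 (0.33). Without mock WT replicate 2, CP12-3 was higher and 2 were lower, PRK (-0.22, edgeR adjusted p = 0.0474) and CP12-2 (-0.38, edgeR adjusted p = 0.0435), with a median of -0.04. With total counts GOX2 was lower (-0.32, edgeR adjusted p = 0.0465), and the split over all genes moved from 1809 higher and 1483 lower to 1217 higher and 3034 lower.

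JA WT and mock lhp1 were compared directly, which equals the jasmonate effect minus the lhp1 effect, since both are taken against the same mock WT libraries. Genotype and treatment both differ in this contrast. Of 37 tested members 35 were higher in JA WT, against 25.1% of all genes, and 2 were lower, FBA3 and AT1G56190, against 20.3%, so that all 37 were called, against 45.4% of all genes. Groups did not overlap for the same counts of members, 35 higher and 2 lower, against 32.5% and 27.7% of all genes. The median log2 difference was 0.88, beside 0.02 over all genes. CA2 differed most, by 2.28 ± 0.15 (edgeR adjusted p = 1.6e-06), and CP12-3, at 0.47 ± 0.16, had the highest adjusted p (0.0355). In all settings tried 30 members stayed higher and 1, FBA3, stayed lower.

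Other genes of the same pathways were read from lists outside the 38. A list of 12 genes held those for Rubisco assembly and modification and the gene of the Rubisco large subunit itself, ATCG00490. Of these, 11 fell in mock lhp1 and 0 rose, against 14.4% and 11.1% of all genes. The 1 gene not called was RBCX1 (edgeR adjusted p = 0.149), so ATCG00490 was among those that fell. It is a plastid gene, read here in libraries of polyadenylated RNA. The median log2 fold change was -0.62. After jasmonate 0 passed in either direction, against 15.7% of all genes (the median was 0.08). Of the called genes, those with the lowest fold changes in lhp1 were AT3G48420 (-1.0 ± 0.13), AT5G51110 (-0.91 ± 0.10), AT3G04550 (-0.84 ± 0.11) and RBCX2 (-0.70 ± 0.09), the last a Rubisco chaperone. All mock lhp1 libraries of each of these 4 lay below all its mock WT libraries.

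Ammonia released by glycine decarboxylase is refixed in chloroplasts, and intermediates pass several membranes. Of 14 genes for refixation, transport and peroxide removal 7 fell and 2 rose in mock lhp1, against 14.4% and 11.1% of all genes. The median log2 fold change was -0.29. GLU1, ferredoxin-dependent glutamate synthase, was at 1009, 709 and 1038 CPM in mock WT, against 290.4, 325 and 322 CPM in mock lhp1. Its groups were far apart, and GLU1 fell by 1.56 ± 0.13 (edgeR adjusted p = 0.000116). LrgB, known as the plastid glycolate and glycerate transporter, fell by 0.97 ± 0.15, PMDH2, peroxisomal malate dehydrogenase, by 0.94 ± 0.13, and GS2, plastid glutamine synthetase, by 0.82 ± 0.09. After jasmonate 1 of the 14 rose, the mitochondrial carrier BOU (0.29 ± 0.08, edgeR adjusted p = 0.0295), and 0 fell. Over all genes 8.62% rose and 7.07% fell. The BOU call was lost with total counts, in the fit of the 2 groups alone and in 6 of the 9 fits without 1 library.

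Further isoforms of the same enzymes, mostly cytosolic or of low level, behaved less uniformly. Of 31 tested, 8 rose and 6 fell in mock lhp1 (median 0.14), and 6 rose and 3 fell after jasmonate (median 0.10), beside the shares of all genes given above. With total counts the lhp1 counts were 18 higher and 5 lower (median 0.29). The highest fold changes of the list, 2.25 in lhp1 and 2.47 after jasmonate, were those of AT5G36790, described above, and did not pass (edgeR adjusted p = 0.116 and 0.115). The called genes with the largest changes in lhp1 were FBP, cytosolic fructose-bisphosphatase (-0.84 ± 0.12), AT5G44520 (-0.84 ± 0.15), GOX3, a glycolate oxidase paralog (0.80 ± 0.12), and AT5G64380 (-0.77 ± 0.15). After jasmonate they were BCA3, a beta carbonic anhydrase (1.07 ± 0.17), GOX3 (0.63 ± 0.12), TKL2, a transketolase (0.59 ± 0.11), and RSW10, a ribose-5-phosphate isomerase (0.47 ± 0.10). BCA3 was at 7.20, 6.75 and 5.35 CPM in mock WT, against 17.1, 11.3 and 11.9 CPM in JA WT. These groups were separate, and BCA3 stood at 5.88 to 7.37 CPM in mock lhp1, overlapping its mock WT range.

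**Figure D5:**
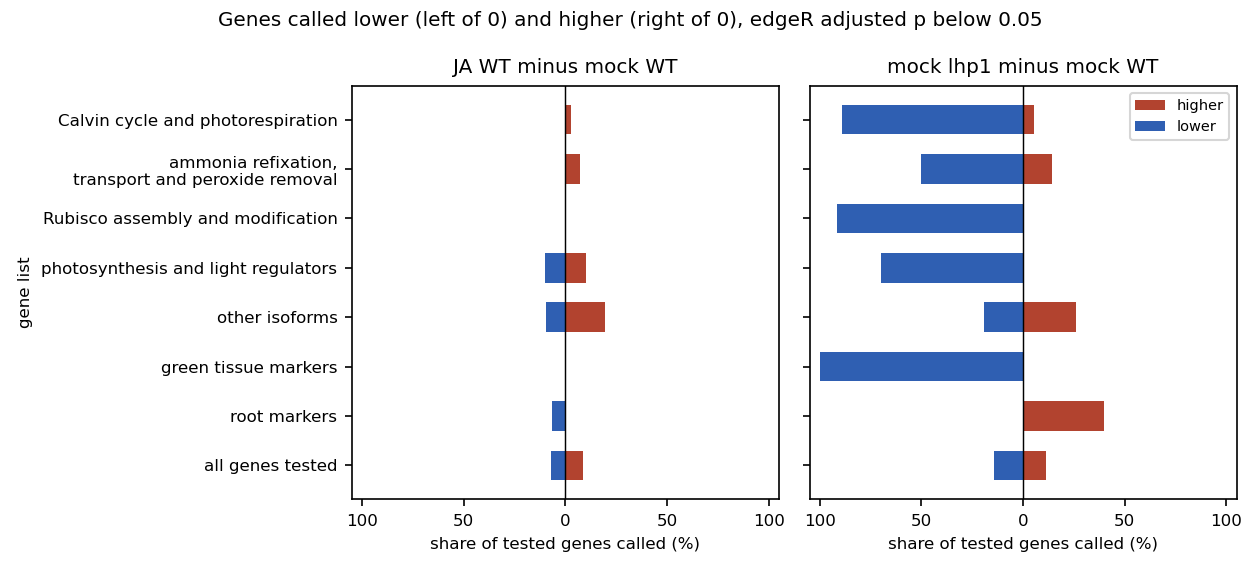
Share of tested genes called lower (left of 0) or higher (right of 0) in percent, for the members, related lists, markers and all genes tested, in JA WT (left panel) and mock lhp1 (right panel) against mock WT. In mock lhp1 the lower share is large for the members (33 of 37) and green tissue markers (11 of 11). It is also large for the Rubisco assembly list, which includes the large subunit gene (11 of 12). The other isoforms are split, and in JA WT the members' bar is 1 of 37.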

How the data were processed

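The authors deposited whole-number read counts per gene, not normalized. TopHat, HTSeq, edgeR and the TAIR10 build are named per the submitters' processing notes, without versions or settings. Strand use and the treatment of reads with several matches are not given in the sources used here. The table held 3 further columns that match no labelled sample and were not used. Gene names, exon lengths, promoters and overlaps came from RefSeq TAIR10.1, matched by locus for 32835 genes.

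Counts were analysed as deposited in edgeR 4.0.16 (R 4.3.3): filterByExpr, which kept 20986 genes, TMM factors (0.911 to 1.10), glmQLFit on all 9 libraries with a mean per group, and two-sided glmQLFTest. A gene was called at a Benjamini-Hochberg adjusted p below 0.05 over all genes tested. Each ± beside a log2 change is its absolute size over the square root of F, an approximate standard error. The common biological coefficient of variation was 0.106. On simulated counts for JA WT against mock WT, with 200 of 20879 genes changed 2-fold, 199 (99.5%) were recovered with 11 false calls. Smaller changes were not simulated. The simulation gave every gene the same coefficient of variation, 0.106, and no library apart from its group, as mock WT replicate 2 was. Genes with few counts were not among those changed. Some members spread more widely, such as CA1 at 1012 ± 399 CPM (SD) in mock WT, so this recovery does not carry over to them.

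Members and lists were chosen with earlier results of these data known, so no list was tested as a set. Values in every library are given for the called member with the largest change in each of the 8 role classes and each comparison with mock WT (with none called, the member with the highest mean CPM), and for members called against their class. Up to 4 called genes of each related list are named. AT5G36790, HY5, GLDP2, CP12-3 in lhp1 and the non-overlapping members were named after their values were seen. Alternatives were DESeq2 1.42.0, limma-voom 3.58.1, DESeq2 size factors, total counts, no filter, the 2 groups alone, a replicate block and leaving out each library. Promoters were searched in Python 3.11.15.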

Additional observations from a re-analysis of the deposited data

How the results depend on the processing

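Of the members lower in lhp1, 32 stayed so in all 16 settings. Leaving out each library in turn gave 32 to 33 members lower and 1 to 3 higher in lhp1, 1 to 5 higher and 0 to 2 lower after jasmonate, and 33 to 35 higher and 1 to 2 lower in JA WT against mock lhp1. Over all genes, those fits gave 1107 to 3289 higher in lhp1. Scaling by total counts put the median of all genes at -0.12 (jasmonate), 0.15 (lhp1) and -0.24 (JA WT against mock lhp1). It gave 1 member lower after jasmonate, member medians of -0.68 (lhp1) and 0.62 (JA WT against mock lhp1), 3034 genes lower after jasmonate, 5042 higher and 1878 lower in lhp1, and 2520 higher and 9226 lower in JA WT against mock lhp1. The fit of the 2 groups alone gave 934 genes lower after jasmonate. Changes after jasmonate that had not passed turned sign for GAPB (-0.0015 with total counts), GGT1 (-0.094 with total counts), SHM1 (-0.0097 with total counts), LHP1 (-0.01 with total counts) and CA1 (0.046 with voom, 0.027 with the replicate block). Leaving out each library in turn, they ranged from -0.018 to 0.27 for GAPB, -0.095 to 0.12 for GGT1, -0.019 to 0.2 for SHM1, -0.043 to 0.22 for LHP1, -0.14 to 0.049 for AT1G80380 and -0.22 to 0.33 for CA1. The cause was not tested. Deviations of same-numbered libraries correlated at -0.0766 to 0.215. Differently numbered libraries were not set beside them, so these values cannot decide whether the numbers pair the samples. With the replicate block 33 members were lower and 2 higher in lhp1, and 1 was higher and 0 lower after jasmonate. With 3 libraries a group, the spread limits what can be seen of changes after jasmonate.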

Other observations

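Regulators of photosynthesis genes and of light responses, a list of 10 genes outside the members, also differed in mock lhp1. Of these 7 fell and 0 rose (edgeR adjusted p below 0.05), beside 14.4% lower and 11.1% higher over all genes. Their median log2 fold change was -0.82. Without mock WT replicate 2, 7 were lower and 1, HY5, was higher (0.56, edgeR adjusted p = 0.0158), and total counts gave 6 lower and 1 higher. GLK1, a transcription factor known to activate chloroplast genes, was at 121, 85.5 and 115 CPM in mock WT, against 52.6, 48.5 and 54.7 CPM in mock lhp1, and its groups did not overlap. GLK1 fell by 1.05 ± 0.15 (edgeR adjusted p = 0.000732) and its paralog GLK2 by 0.89 ± 0.09 (edgeR adjusted p = 0.000189). The phytochrome-interacting factor genes PIF4 and PIF3 fell by 1.17 ± 0.13 and 0.94 ± 0.15. After jasmonate PIF3 rose by 0.54 ± 0.15 (edgeR adjusted p = 0.0286, lost in 4 of the 9 fits without 1 library and in the fit of the 2 groups alone) and PIF1 fell by 0.35 ± 0.08 (edgeR adjusted p = 0.00871). Of 8 circadian clock genes 1 rose and 1 fell in lhp1, beside 11.1% higher and 14.4% lower over all genes (2 higher without mock WT replicate 2 and with total counts). After jasmonate 3 fell and 0 rose, beside 7.07% lower over all genes, and 5 were lower with total counts.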
